A study of Mus musculus with 2 samples.

Results

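The genes described here are 33 mouse genes of cholesterol, fatty acid and lipid handling, read on an Affymetrix array of marrow cells that had shared their medium with ID8 tumour cells. They were listed by symbol, with earlier results of these data already known. A gene was read through the probe sets whose only gene symbol in the platform annotation is that gene, which gave 75 probe sets for 33 of 33 genes, out of 18193 genes named in this way on the array. ID8 is an ovarian tumour line of the mouse. Marrow cells from femurs of C57BL/6 mice were kept in RPMI-1640 with 5% FBS (fetal bovine serum) below ID8 cells in a transwell plate for 4 days, and the product was labelled CD11b+Gr1+ myeloid-derived suppressor cells (ID8-induced MDSC), which are immature myeloid cells known for dampening T cell responses. The title of the sample names tumour supernatant as the inducer. The labels write the line both as ID8 and as 1D8, and they name no allele, transgene, age or number of mice.

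The other array of the study, of C57BL/6 bone marrow cells labelled as control, was not compared. Going down its 45037 rows the signal went up at 6.9% of steps, where the ID8-induced array had 49.9%, and 0 such steps were left once its interleaved value ranges were taken apart. Its signals are therefore not tied to probe sets. Every value below comes from the ID8-induced array alone. With 1 array there is no replicate error, no fold change and no test, and nothing below says that a gene was raised or lowered by tumour cells. Values are MAS5 signal, the linear summary of a probe set's brightness. The percentile of a signal is the share of the 45037 probe sets that were dimmer. A gene's signal is that of its brightest probe set, and the signal floor is the array's 40th percentile (68.77). How well a probe set hybridises also sets its signal, so genes are not ranked by abundance. In a bulk sample, fewer cells of a type and less RNA per cell cannot be told apart.

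Cells make cholesterol from acetyl-CoA through mevalonate and farnesyl diphosphate to squalene, which is closed into lanosterol and trimmed to cholesterol. The transcription factors SREBP-1 and SREBP-2 switch this route and fatty acid synthesis on when membranes are short of sterol, and the INSIG proteins hold them back when sterol is plentiful. Myeloid cells also take lipid up from outside, free it in lysosomes, store it in droplets, burn it in mitochondria, and export cholesterol through ABC transporters that the liver X receptors induce.

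Of the 33 genes 31 (93.9%) lay above the floor, against 71.3% of all 18193 named genes. At or above the 90th percentile of probe sets (619.81) were 14 of the 33 (42.4%), against 14.8% of all genes, and at or above the 99th percentile (4651) was 1, Npc2, against 1.39% of all genes. Their median percentile was 87.5, beside 61.4 for all named genes. The choice of the brightest probe set favours genes that have several. Among genes with several probe sets 20 of 22 members passed the floor (90.9%), against 85.2% of all such genes. Among genes with 1 probe set 11 of 11 passed, against 57.7%. The share of members whose probe sets all passed was nearer to that of all genes, 57.6% (19 of 33) against 49.7%. Among genes with several probe sets it was 36.4% (8 of 22) for members, below the 41.5% of all such genes. For genes with 1 probe set this reading is the same as the brightest. The genes below the floor were Cd36 and Lpl. Just above it stood Acaca at 69.74, and just below it Lpl at 61.62.

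**Figure D1:**
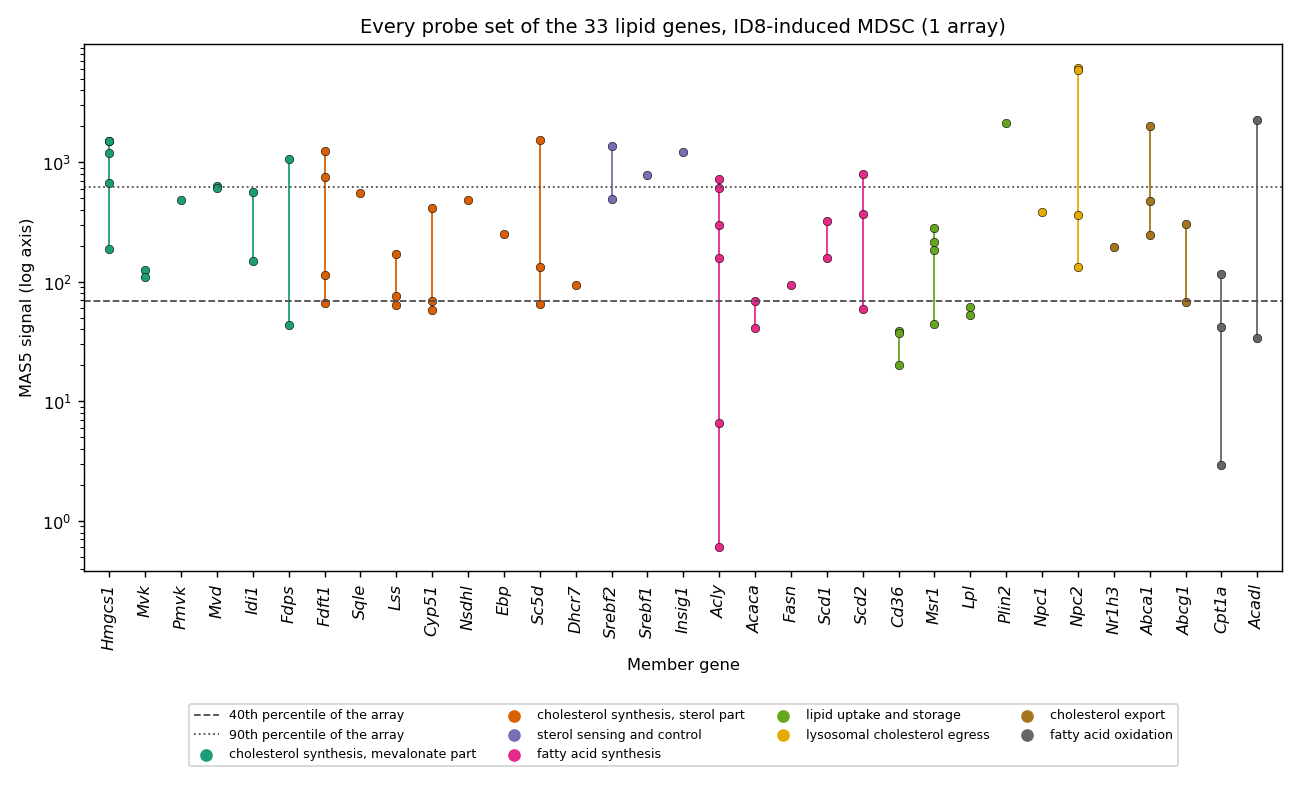
MAS5 signal (log axis) of each of the 75 probe sets of the 33 genes on the ID8-induced MDSC array. Points are probe sets, a vertical line joins the probe sets of a gene, and dashed and dotted lines mark the 40th (68.77) and 90th (619.81) percentile of the array. Cd36 and Lpl lie wholly below the floor, and Acly spans the widest range, from 0.6 to 728.

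Enzymes of cholesterol synthesis lay above the floor in 14 of 14 cases, and 5 of the 14 reached the 90th percentile. In the mevalonate part all 6 passed, with a median percentile of 89.7. Hmgcs1, the synthase that makes HMG-CoA, was read by 5 probe sets at 1506, 1498, 1197, 673 and 188.53. All 5 lay above the floor and 4 of them above the 90th percentile. Mvd, which decarboxylates mevalonate diphosphate, read 629 and 609.78 on its probe sets, a difference of 1.03 times. Fdps, which makes farnesyl diphosphate, read 1058 on 1423418_at and 43.27 on 1438150_at, so its probe sets stood on both sides of the floor.

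The other mevalonate enzymes lay below the 90th percentile. Idi1, the isomerase of isopentenyl diphosphate, read 569.56 and 148.4. Pmvk, the kinase of phosphomevalonate, read 483 on its only probe set. Mvk, mevalonate kinase, read 126.89 and 110.21. Its probe sets were close to each other, at the 61.7 and 57.3 percentile, near the median percentile of all named genes.

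In the sterol part 8 of 8 enzymes passed the floor, with a median percentile of 86.7. Fdft1, squalene synthase, read 1242, 748, 114 and 66.16, the last below the floor. Sqle, squalene epoxidase, which carries out a rate-limiting step of the sterol part, read 556 on its only probe set (88.9 percentile). Sc5d, sterol desaturase, read 1527, 132.57 and 65.77. Its strong reading therefore rests on 1 of 3 probe sets (1451457_at).

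Lss, lanosterol synthase, read 170.3, 76.6 and 63.63. Cyp51, lanosterol demethylase, read 418, 68.65 and 58.15, so only 1 of its 3 probe sets lay above the floor. Nsdhl, which also acts in demethylation, read 483, and Ebp, the sterol isomerase, 250.71. Dhcr7, a reductase of the final steps to cholesterol, read 93.96, at the 51.6 percentile. Nsdhl, Ebp and Dhcr7 had 1 probe set each, so no second reading stands beside theirs.

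All 3 genes of sterol sensing and control reached the 90th percentile, and all their probe sets lay above the floor. Srebf2, which encodes SREBP-2, the form that acts mainly on cholesterol genes, read 1363 and 490.96. Srebf1, which encodes SREBP-1, the form that acts mainly on fatty acid genes, read 786. Its probe set (1426690_a_at) carries the suffix used for probes shared by several transcripts of a gene. Insig1, which retains the SREBP complex in the endoplasmic reticulum and is itself an SREBP target, read 1221 on its only probe set.

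The promoters of these genes were read from RefSeq (GRCm38.p6, 250 bases before to 50 after the annotated start), because SREBPs work there with NF-Y, a factor that binds CCAAT. The table held a promoter for 24 of the 33 genes, 30 promoters in all. The letters CCAAT were searched on both strands. They stood in the promoter of 11 of 11 cholesterol synthesis genes that had one in the table and 3 of 3 genes of sterol sensing and control. The cholesterol synthesis genes Fdps, Fdft1 and Sqle had no promoter there and were not searched. Over all 27025 genes of the table the share was 41.1% (37.4% of 32851 promoters), and over 14452 genes named on the array it was 42.0%. It was 42.2% for the 10450 of these above the floor. Among all 24 members 20 held the motif, and among 52 other genes of the pathway 28 (53.8%). By step, CCAAT also stood in 2 of 2 genes of uptake and storage (Cd36 and Plin2), 1 of 1 of lysosomal egress (Npc2), 2 of 3 of fatty acid synthesis (Acly and Fasn) and 1 of 2 of oxidation (Cpt1a). In cholesterol export it stood in 0 of 2 (Abca1 and Nr1h3). The motif was therefore not limited to the sterol genes.

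The windows below show, for these 14 genes, the CCAAT box that lies nearest to the start and wholly before it, with up to 25 bases on each side and cut at the start. Each is written 5′ to 3′ on the strand of the gene, with the box in capitals (CCAAT, or ATTGG where it lies on the opposite strand).
Hmgcs1, chr13:119690281-119690335, plus strand: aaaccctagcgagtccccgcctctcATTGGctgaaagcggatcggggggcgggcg
Mvk, chr5:114444230-114444268, plus strand: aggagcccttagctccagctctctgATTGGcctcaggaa
Pmvk, chr3:89454380-89454434, plus strand: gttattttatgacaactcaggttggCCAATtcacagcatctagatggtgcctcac
Mvd, chr8:122443423-122443474, minus strand: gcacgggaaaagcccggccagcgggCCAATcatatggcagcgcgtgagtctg
Idi1, chr13:8885567-8885605, plus strand: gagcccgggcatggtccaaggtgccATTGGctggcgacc
Lss, chr10:76531518-76531572, plus strand: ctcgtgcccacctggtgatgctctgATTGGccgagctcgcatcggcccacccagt
Cyp51, chr5:4104698-4104751, minus strand: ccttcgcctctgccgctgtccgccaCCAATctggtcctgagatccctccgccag
Nsdhl, chrX:72918476-72918520, plus strand: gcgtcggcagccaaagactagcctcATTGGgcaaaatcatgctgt
Ebp, chrX:8193538-8193592, minus strand: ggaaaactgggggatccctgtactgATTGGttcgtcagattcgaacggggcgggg
Sc5d, chr9:42264301-42264349, minus strand: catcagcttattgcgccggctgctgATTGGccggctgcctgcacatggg
Dhcr7, chr7:143830140-143830194, plus strand: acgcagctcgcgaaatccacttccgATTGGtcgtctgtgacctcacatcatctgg
Srebf2, chr15:82147109-82147163, plus strand: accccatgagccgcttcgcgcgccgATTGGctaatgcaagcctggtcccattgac
Srebf1, chr11:60210472-60210526, minus strand: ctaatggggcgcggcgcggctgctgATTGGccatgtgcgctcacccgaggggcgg
Insig1, chr5:28071171-28071225, plus strand: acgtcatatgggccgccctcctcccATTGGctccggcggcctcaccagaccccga
The box lay on the opposite strand in 11 of the 14 and on the strand of the gene in 3. Its first base as written stood between 14 and 216 bases before the start, with a median of 37.5. A match to 5 letters is a description and not a site shown to be bound.

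A sterol regulatory element, the SREBP site, was searched as TCACNCCAC on both strands. It stood in 1 of the 24 members with a promoter in the table, Hmgcs1, and in 1.44% of all genes. The element of Hmgcs1, in capitals, begins 137 bases before the start.
Hmgcs1, chr13:119690189-119690247, plus strand: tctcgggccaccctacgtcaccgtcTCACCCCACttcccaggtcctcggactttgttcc
The E-box CACGTG, which SREBP-1 can also bind, stood in 5 of 24 members (Sc5d, Dhcr7, Insig1, Plin2 and Abca1). The share was 20.8%, against 8.09% of all genes, 10.2% of those named on the array and 11.2% of named genes above the floor. Among 52 other genes of the pathway 9 held the E-box (17.3%). The LXR DR4 element, a direct repeat that liver X receptors bind, stood in 0 of 24 and in 0.0148% of all genes. A missing match says only that these letters are not in this window, and known elements often differ from them by a base or lie farther away. No match to any of these motifs overlapped a match to another in the members.

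**Figure D2:**
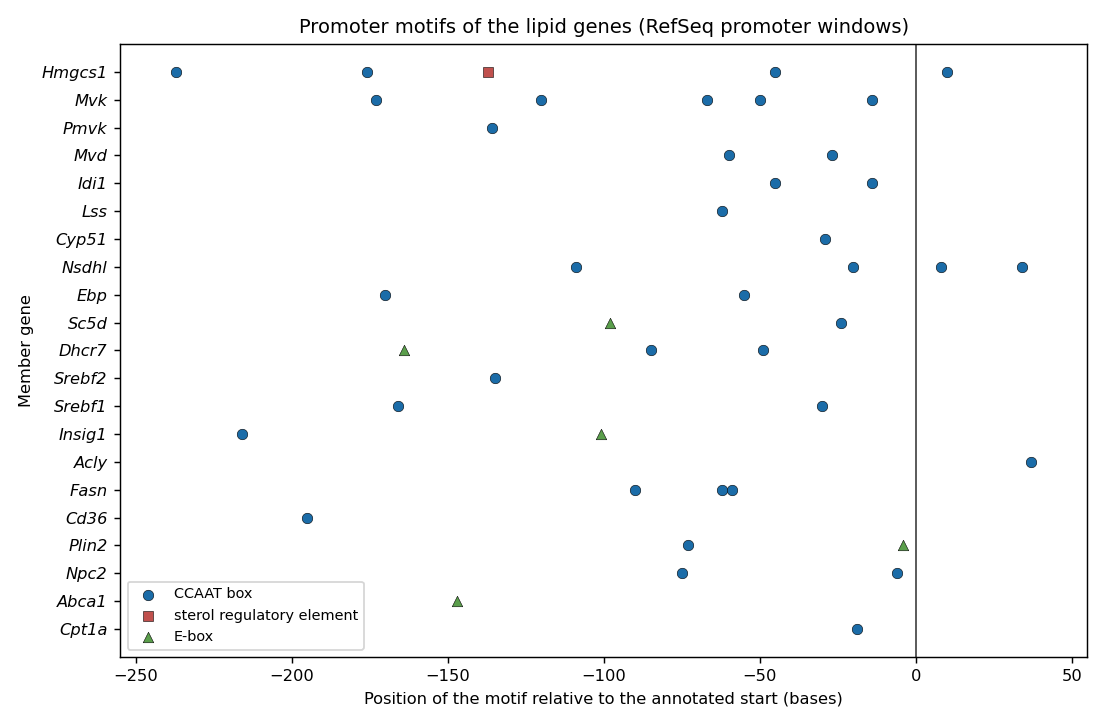
Positions of CCAAT boxes, sterol regulatory elements and E-boxes in the RefSeq promoters of the members that hold any of them. The horizontal axis is the distance in bases of the motif's first base from the annotated start (negative before it), and each point is a match on either strand. A gene with more than 1 promoter has all its matches on 1 row, each measured from its own start. The E-box and CCAAT boxes of Dhcr7 lie in different promoters, as do the CCAAT boxes of Srebf1. Each of the 14 genes of cholesterol synthesis and sterol control with a promoter in the table has a CCAAT box before its start.

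Fatty acid synthesis genes passed the floor in 5 of 5 cases, 2 of which reached the 90th percentile, with a median percentile of 82.5. The count depended on the floor and on the choice of probe set. It was 3 of 5 with the floor at the 60th percentile or with the mean over probe sets, and 2 of 5 by the dimmest probe set. Acly, ATP citrate lyase, which supplies cytosolic acetyl-CoA, was read by 6 probe sets at 728, 614.7, 298, 159, 6.58 and 0.6. The lowest readings came from 1439445_x_at and 1438389_x_at, whose suffix marks probes that can match other transcripts. A further probe set of that kind, 1439459_x_at, read 614.7.

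Acaca, acetyl-CoA carboxylase, the committed step to fatty acids, read 69.74 and 41.48, just above and below the floor. Fasn, fatty acid synthase, read 93.88 on its only probe set, at the 51.6 percentile. The carboxylase and the synthase were thus both read below the median percentile of all named genes (61.4). Scd1 and Scd2 encode stearoyl-CoA desaturases, which put a double bond into saturated fatty acids. Scd1 read 325 and 159.95. Scd2 read 803, 371 and 58.87, the last below the floor.

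Lipid uptake and storage genes stood on both sides of the floor, with 2 of 4 above it. Cd36, the scavenger receptor and fatty acid translocase, read 39.08, 37.12 and 20.27, all 3 below the floor. Lpl, lipoprotein lipase, which frees fatty acids from lipoproteins, read 61.62 and 53.06, both below. All 5 probe sets of these genes lay between the 6.8 and 35.9 percentile of the array. Msr1, the class A macrophage scavenger receptor, read 283, 214.2, 183.7 and 44.09. Plin2, which coats lipid droplets, read 2132 on its only probe set, at the 97.1 percentile.

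Because Cd36, Lpl and Plin2 are also abundant in macrophages or fat cells, markers of those cells are given beside them. Of 10 markers of mature macrophages 6 passed the floor, with a summed signal of 10430. Csf1r, Cd68 and Adgre1 read 4403, 3597 and 1443, and C1qb, Gpnmb and Marco 365, 295 and 172.71. The dimmest probe sets of C1qb and Gpnmb read 18.71 and 32.69, so 4 of the 10 markers passed on every probe set. C1qa, Mrc1, C1qc and Mertk lay below the floor at 35.04, 35.06, 35.13 and 48.62. Of 5 measured fat cell markers 2 passed the floor, with a summed signal of 445.74. Adipoq (adiponectin), Cidec and Lep (leptin) read 13.66, 32.56 and 53.01, below the floor, and Retn and Plin4 read 117 and 229. The part of these cells in the lipid signals was not tested.

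Marker lists were read against the same 71.3% of all named genes that passed the floor, so a passing marker does not by itself show a cell type. Granulocytic and monocytic markers passed in 9 of 9 measured cases, of which 8 reached the 90th percentile, against 14.8% of all genes. Itgam, which encodes CD11b, read 2375, and S100a9 24857. The summed signal of the 9 markers was 96456. Every probe set passed for 8 of the 9. The exception was Ccr2, the lowest of the list, whose brightest probe set read 286.04 and dimmest 9.84. Ly6g was not analysed here, and Ly6c2, also on the list, had no probe set named for it alone.

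Markers of other cells passed the floor too, read by the brightest probe set. Every probe set passed for 4 of 7 T and NK cell, 2 of 5 B lineage and 2 of 5 erythroid markers. The same held for 0 of 8 fibroblast and stromal and 3 of 9 epithelial and mesothelial markers, against 49.7% of all genes. T and NK cell markers passed in 6 of 7 cases, with a summed signal of 1307, and 0 reached the 90th percentile. B lineage markers passed in 5 of 5 cases and summed to 4209, of which Ighm, the immunoglobulin mu chain, gave 3593. Erythroid markers passed in 2 of 5 cases and summed to 1992, of which Alas2, of haem synthesis, gave 1693, while Hba-a1 and Klf1 read 51.32 and 55.94. Fibroblast and stromal markers passed in 4 of 8 cases and summed to 1463, of which Acta2, smooth muscle actin, gave 790. Epithelial and mesothelial markers, the kind of cell ID8 derives from, passed in 6 of 9 cases and summed to 978, and 0 reached the 90th percentile. Above the floor were Cldn3 at 239, Upk1b at 170.48, Epcam at 158.91, Krt8 at 106.89, Krt18 at 94.87 and Msln at 87.77. The dimmest probe sets of Upk1b, Epcam and Krt8 read 3.76, 58.32 and 46.62, below the floor. Wt1, Krt19 and Cdh1 lay below it at 52.31, 46.03 and 21.57. These sums add probe sets that hybridise differently and lists of unequal size, so they are not compared with each other. The part of these cells in the lipid signals was not tested either.

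Genes of lysosomal cholesterol egress were read above the floor on every probe set. NPC2 takes cholesterol from degraded lipoproteins and hands it to NPC1 in the lysosomal membrane. Npc2 read 6167 (1448513_a_at), 5891 (1416901_at), 361 and 134.26. They formed a pair above the 99th percentile and a pair at the 84.0 and 63.4 percentile. Npc1 read 382 on its only probe set, at the 84.8 percentile.

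Cholesterol export genes passed the floor in 3 of 3 cases. Abca1, the transporter that loads cholesterol onto apolipoprotein A-I, read 2014, 474 and 249.2, all above the floor. Abcg1, which passes cholesterol to HDL, read 306 and 67.44, the last just below the floor. Nr1h3, which encodes the liver X receptor alpha that induces both transporters, read 194.79 on its only probe set, at the 73.1 percentile.

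Fatty acid oxidation genes were read above the floor on their brightest probe set in 2 of 2 cases and on their dimmest in 0 of 2. Acadl, long-chain acyl-CoA dehydrogenase, read 2284 on 1448987_at and 33.95 on 1448988_at, a difference of 67.28 times. Cpt1a, the carnitine transferase that admits long-chain fatty acids to mitochondria, read 117, 42.18 and 2.95. For Acadl the percentile was 97.3 or 16.4 by the probe set taken, so its reading is open to the choice.

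Probe sets of a gene disagreed often among the members. In 12 of the 22 members with several probe sets the brightest exceeded the dimmest by over 5 times, against 31.5% of the 9010 genes with several. In 12 of 22 the brightest lay above and the dimmest below the floor, against 43.7%. The median ratio was 6.8 for members and 3.01 for all such genes. Only Mvk, Mvd and Lpl had all their readings within 1.5 times. In 8 of the 22 (36.4%) every probe set lay above the floor (Hmgcs1, Mvk, Mvd, Idi1, Srebf2, Scd1, Npc2 and Abca1), against 41.5% of all such genes. In 2 of the 22, Cd36 and Lpl, none did, against 1332 of the 9010. Of the 75 probe sets 55 lay above the floor (73.3%), and by definition 40% of all probe sets of the array lie below it.

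Other genes of the pathway came from lists that leave the members out. They passed the floor in 52 of 55 measured cases (94.5%), against 71.3% of all genes, and 17 (30.9%) reached the 90th percentile, against 14.8%. Their median percentile was 83.2. Every probe set passed for 39 of the 55 (70.9%), against 49.7% of all genes. These shares were not split by number of probe sets, and the choice of the brightest favours genes with several. Another 9 genes of these lists were not analysed here. All 5 measured genes of cholesterol synthesis passed, from Tm7sf2 at 99.67 to Lbr at 3920, which both encode sterol reductases. In sterol sensing and control 5 of 5 passed, from Scap, the SREBP escort, at 119.37 to Insig2 at 795. The dimmest probe set of Scap read 32.32, below the floor, and 3 of the 5 passed on every probe set. In fatty acid synthesis 7 of 8 passed, from the elongase gene Elovl6, below the floor at 50.06, to Elovl5 at 761.

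Uptake and storage genes of these lists passed in 16 of 17 cases. Acsl3, an acyl-CoA synthetase gene, lay below the floor at 54.28. Dgat2, whose product makes triglyceride, read 4658 and 3761 on its probe sets, at or above the 99th percentile on the first of these. Lysosomal genes passed in 4 of 4 cases, from Stard3 at 427 to Lamp1 at 7260. Export genes passed in 6 of 6 cases, from Apoe (apolipoprotein E) at 106.83 to Mylip at 663, an LXR-induced ligase for the LDL receptor. Oxidation genes passed in 9 of 10 cases, from Ppargc1a, a coactivator of mitochondrial genes, below the floor at 53.78, to Hadhb, of the trifunctional protein, at 886.

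**Figure D3:**
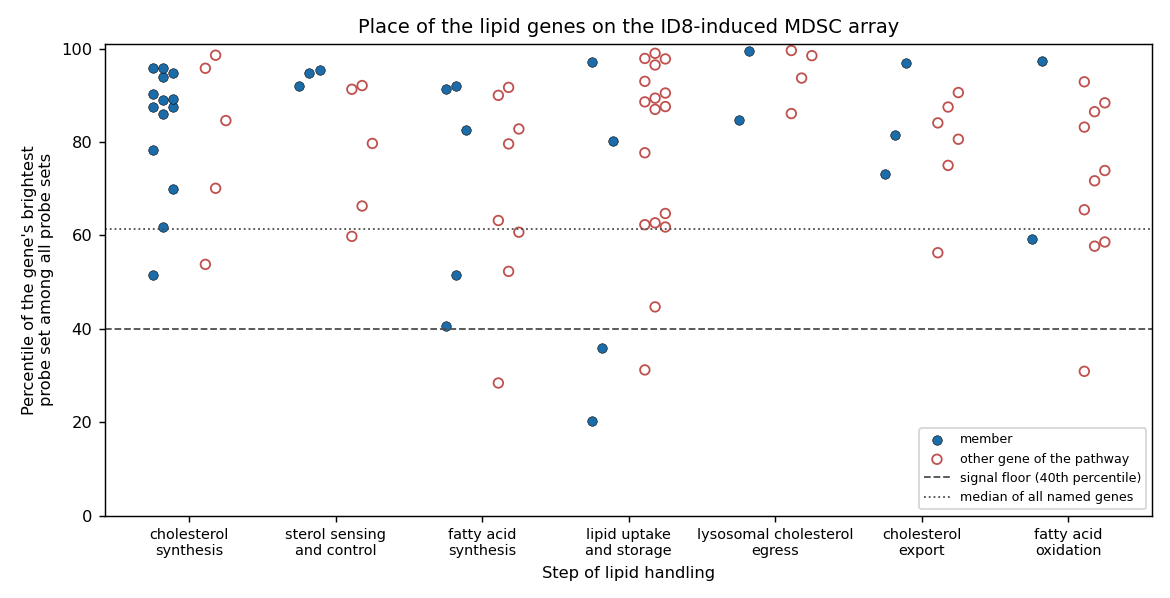
Percentile of each gene's brightest probe set among all probe sets of the ID8-induced MDSC array, by step of lipid handling. Filled points are the 33 members, open points the 55 other measured genes of the pathway, the dashed line is the 40th percentile floor and the dotted line the median of all named genes (61.4). The 3 members of sterol sensing and control lie above the 90th percentile, and uptake and storage spans from 20.2 (Cd36) to 97.1 (Plin2) among members.

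The place of the members against all genes was read under each setting. With the floor at the 20th percentile 33 of 33 passed, against 87.5% of all genes. With the floor at the 60th percentile 27 of 33 passed (81.8%), against 51.6% of all genes. With suffix-free probe sets 28 of 30 passed (93.3%), against 68.0%. With the mean log2 signal over probe sets 28 passed (84.8%), against 62.4%. With the dimmest probe set 19 passed (57.6%), against 49.7%, a smaller difference from all genes than in the other settings run. Among genes with several probe sets the members' share by the dimmest was below that of all such genes, 36.4% against 41.5%.

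**Figure D4:**
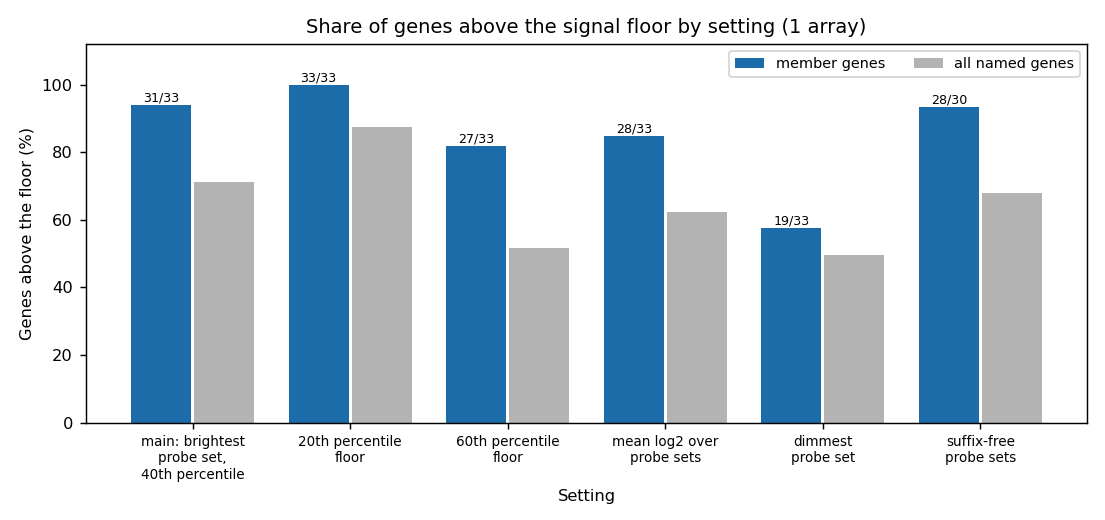
Percent of genes above the signal floor under each setting, for the 33 members (30 with suffix-free probe sets) and for all named genes of the ID8-induced MDSC array. Bars start at 0 and numbers give members above the floor over members measured. The members' bar is the higher in every setting, and the bars are closest with the dimmest probe set (57.6% and 49.7%). Bars pool genes with 1 and with several probe sets. Among genes with several, the members' share by the dimmest was the lower (36.4% against 41.5%).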

How the data were processed

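The authors hybridised 1 biotin-labelled cRNA per group to an Affymetrix array. The deposited table holds a linear signal intensity for each probe set, made with MAS5 per the submitters' processing notes. The version of MAS5, its scaling target and any detection calls are not given here in the sources used. Depth does not apply to arrays, and 1 array limits the precision throughout.

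The value table was used as deposited, with no rescaling. Of 45037 probe sets, the 34945 with 1 symbol in the platform annotation were used, and those with several (932) or without a symbol (9160) were left out. The RefSeq table of GRCm38.p6 held the Entrez ID of 34741 of those used. A gene was read by its brightest probe set against a floor at the array's 40th percentile. All 33 members are named, by step of the pathway. Of the other lists the lowest and highest gene are named, and markers were named after their values were seen. The members and lists were chosen with earlier results of these data known. As alternatives, the floor was moved to the 20th and to the 60th percentile, or a gene was read by its mean log2 signal (signals under 0.01 set to 0.01), its dimmest probe set, or those probe sets whose ID ends in a number and _at alone (suffix-free). Scripts were tested on simulated data. Python 3.11.15, numpy 2.4.6, pandas 2.3.3 and matplotlib 3.10.9 were used.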

Additional observations from a re-analysis of the deposited data

How the results depend on the processing

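The count of members above the floor was 31 of 33. It was 33 with the floor at the 20th percentile, where 87.5% of all genes passed, 27 at the 60th and 28 with the mean over probe sets. With suffix-free probe sets it was 28 of 30, where 68.0% of all genes passed, and with the dimmest probe set 19. The count for all genes, 12973, stayed within 1.5 times, from 9037 with the dimmest probe set to 15924 with the floor at the 20th percentile. By step, the dimmest probe set left 4 of 8 for the sterol part of cholesterol synthesis, 2 of 5 for fatty acid synthesis, 1 of 4 for uptake and storage and 0 of 2 for oxidation. The floor at the 60th percentile left 3 of 5 for fatty acid synthesis and 1 of 2 for oxidation, as did the mean over probe sets, and the floor at the 20th percentile gave 4 of 4 for uptake and storage. Counts of the other steps stayed within 1.5 times under each setting. Signals of single members moved by over 1.5 times for 16 of 33 with the mean over probe sets, 19 of 33 with the dimmest and 2 of 30 with suffix-free probe sets, which were Fdft1 (748) and Lss (76.6). With the mean Acly came to 66.17 and Cpt1a to 24.45, below the floor, Acadl to 278, Sc5d to 237 and Fdps to 214. No paired analysis was possible because each group had 1 array.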
